A study of Mus musculus with 18 samples.

Results

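The testes compared here came from ICR mice, an outbred stock, at 10 weeks of age. The AOS-transplant group had been given streptozotocin (STZ), which kills insulin-producing beta cells and serves to model diabetes in rodents, and a faecal microbiota transplant. Its label is read here as naming donors dosed at 10 mg/kg with alginate oligosaccharide (AOS), a breakdown product of the alginate of brown seaweed. The STZ group had received streptozotocin, and its label names no transplant. Each group had 3 whole-testis RNA libraries, 6 of the 18 libraries of the series, and all 20985 genes of the table were compared, of which 14164 (67.5%) had a level high enough for the test. A control-transplant group, also given streptozotocin, with material read as coming from control donors, and a control group known by that name alone, 3 libraries each, served to place the values. The remaining 6 libraries, labelled STZ + AOS and AOS, entered no comparison, but took part in the estimate of the spread, shared by all 6 groups, and in the filter on low values. The labels give no streptozotocin dose, route, blood glucose, number of donors or sham transplant, and do not tie each library to an animal of its own. The p-values therefore reflect only how much these samples varied, and that variation may be technical.

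The testis makes sperm in tubules lined by Sertoli cells, which nurse the germ cells, seal the tubule by tight junctions and swallow the residual bodies that spermatids shed. Germ cells pass from spermatogonia through meiosis to round and then elongating spermatids, which swap histones for transition proteins and then protamines. Between the tubules lie testosterone-making Leydig cells, resident macrophages, vessels and matrix. The design text gives the aim of the series as exploring how transplanted microbiota act on testis damaged by streptozotocin.

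The AOS-transplant libraries were uniform and the STZ libraries were not. On the first principal component, which held 54.2% of the variance, the AOS-transplant libraries scored −12.6, −10.9 and −11.4, against 26.2, 60.9 and 61.8 in STZ replicates 1, 2 and 3. The libraries outside the STZ group, 15 in number, lay between −16.2 and −1.9, so STZ replicate 1 was the STZ library nearest to them. Pearson correlations of log2 values within a group ranged from 0.9928 to 0.994 among AOS-transplant libraries and from 0.9782 to 0.9903 among STZ libraries. Summed FPKM (fragments per kilobase of transcript, scaled to the size of the library) lay between 561038 and 622169 per library over the series, and the number of reads behind it is unknown. Protamine and transition protein genes took 7.943 ± 0.465% of that sum in AOS-transplant libraries, against 4.95 ± 1.52% in STZ libraries and 7.343 ± 0.446% in control libraries (SD, n = 3 each). The share of the table at or above 1 FPKM was 62.37 ± 0.252% in AOS-transplant libraries, against 66.73 ± 1.5% in the STZ group (SD, n = 3 for both).

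**Figure D1:**
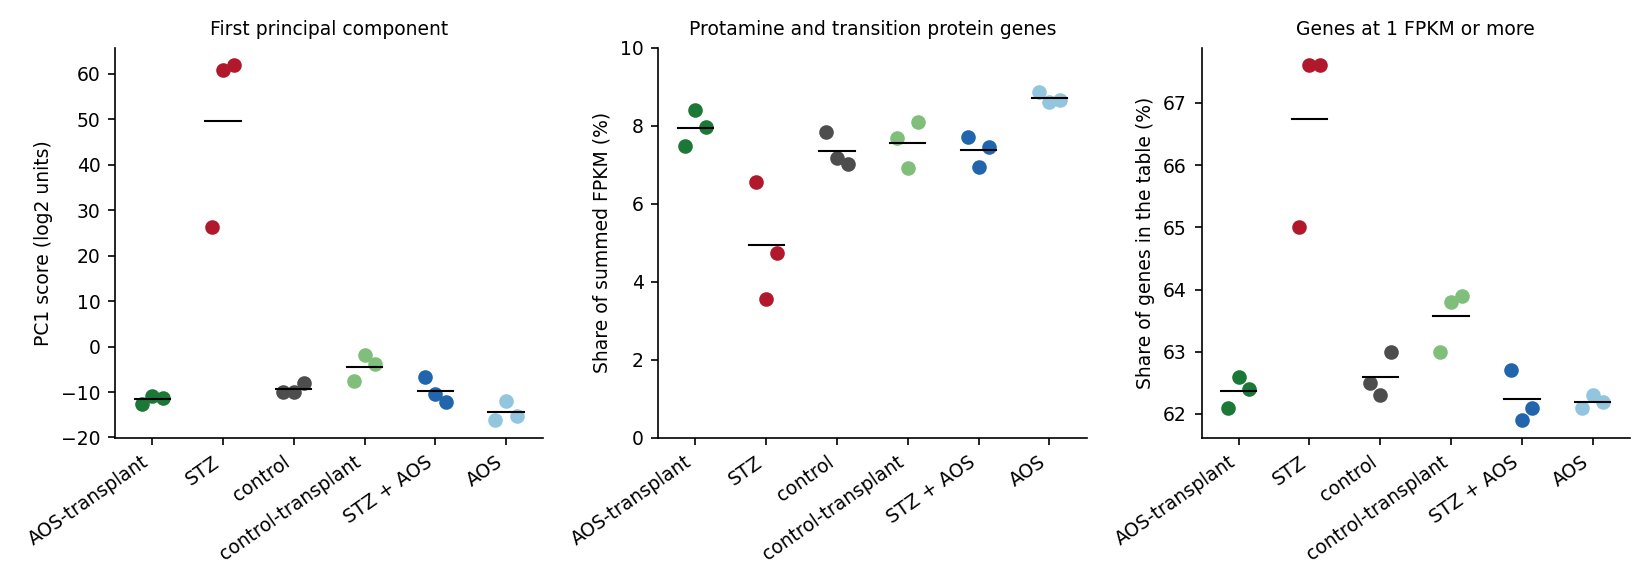
Score on the first principal component (log2 units), share of the FPKM sum held by protamine and transition protein genes (%), and share of genes at 1 FPKM or more (%), for each library of the 6 groups; points are libraries and bars are group means. The 3 AOS-transplant libraries score between −12.6 and −10.9 on the component, while the 3 STZ libraries score between 26.2 and 61.8 and show the widest spread of any group on all 3 axes.

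Testes of the AOS-transplant group had higher levels of late spermatid genes and lower levels of Sertoli cell, macrophage, lysosome, matrix and inflammatory genes than testes of the STZ group. Prm2, a protamine gene, averaged 12720 ± 2140 FPKM in AOS-transplant libraries and 6315 ± 2040 FPKM in STZ libraries. Clu, the Sertoli cell clusterin gene, averaged 489.9 ± 4.36 FPKM in AOS-transplant libraries against 1409 ± 177 FPKM in STZ (SD, n = 3 for each mean). In whole tissue, fewer cells of a type and less RNA per cell cannot be told apart. Of the 14164 genes tested with limma on log2(FPKM + 1), 1703 (12%) were higher and 6308 (44.5%) were lower in the AOS-transplant group at an adjusted p under 0.05. The 3 AOS-transplant and 3 STZ libraries did not overlap for 53.4% of the genes tested. Together these calls made up 56.6% of the genes tested, and 61.3% had an unadjusted p under 0.05. Only 8 genes (0.0565%) were higher by at least 1 on the log2 scale, whereas 899 (6.35%) were lower by as much. Genes that reached 1 FPKM in the 3 STZ libraries alone also passed the filter on low values, and these could only come out lower. How many of the 6308 and 899 lower genes entered in this way was not counted.

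The balance of higher and lower genes depended on the scaling of the libraries. The median log2 fold change over all genes was −0.18 as deposited, and list medians against STZ under the main settings are below also given relative to it. After each library was centred on its own median, the all-gene median became 0.18, and 6350 genes (44.8%) were higher and 2744 (19.4%) lower. After quantile normalization it was 0.07, with 4220 genes (29.8%) higher and 3205 (22.6%) lower. These shares, and 12% higher and 44.5% lower as deposited, are the background for the list counts below. Called in the same direction under all 3 scalings were 1408 higher genes (9.94%) and 2547 lower genes (18%). With only the AOS-transplant and STZ libraries in the model, 573 genes were higher and 4652 lower. The main model shares 1 spread over all groups, yet STZ libraries varied most (SD of the first component score 20.3, against 0.874 to 2.89 in the other groups). SEs and adjusted p-values against STZ can therefore be too small, and those against control and control-transplant too large. With only the 2 groups compared in the model, 0 genes passed against control and 0 against control-transplant.

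**Figure D2:**
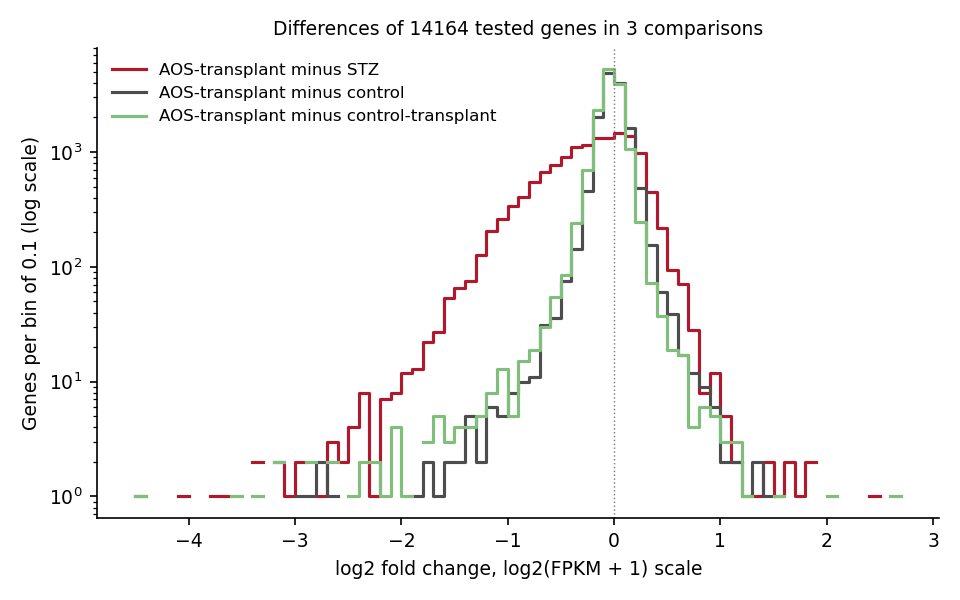
Number of genes (log scale) per bin of 0.1 in log2 fold change on the log2(FPKM + 1) scale, for the 14164 tested genes, as lines for AOS-transplant minus STZ, minus control and minus control-transplant. The line for AOS-transplant minus STZ is wide and leans to the left (median −0.18), and the lines against control and control-transplant are narrow (medians −0.02 and −0.03).

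Genes of elongating spermatids rose in the AOS-transplant group. Of 34 tested, 28 were higher and 0 lower than in STZ, with a median log2 fold change of 0.44, or 0.62 relative to all genes, and the direction held with 34 higher after median centring and 21 higher after quantile normalization, 0 lower in each. Prm2 stood at 10555, 14831 and 12764 FPKM in AOS-transplant libraries, against 8555, 4562 and 5827 FPKM in STZ libraries. The groups did not overlap, and STZ replicate 1 was the highest STZ library (log2 fold change 1.04, SE 0.18, limma adjusted p = 0.00021). The other protamine genes rose too, Prm1 by 0.79 (SE 0.18, limma adjusted p = 0.0016) and Prm3 by 0.77 (SE 0.14, limma adjusted p = 0.00025). The transition protein genes Tnp1 and Tnp2, whose products sit on DNA between histones and protamines, rose by 0.61 and 0.65 (limma adjusted p = 0.0039 and 0.0032). After quantile normalization the differences of Prm1 and Tnp2 shrank to 0.10 and 0.00 (limma adjusted p = 0.38 and 1.0), whereas Prm2 kept 0.60 (limma adjusted p = 0.0031). With only the 2 groups in the model, Prm1, Tnp1 and Tnp2 missed the threshold (limma adjusted p = 0.066, 0.076 and 0.085).

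Among the other products of late spermatids, Smcp, which encodes a cysteine-rich protein of the sperm mitochondrial capsule, stood at 4473, 4966 and 4500 FPKM in AOS-transplant libraries, against 3348, 2500 and 2880 FPKM in STZ libraries, with no overlap (log2 fold change 0.68, SE 0.09, limma adjusted p = 1.4e-05). Tssk6, a kinase gene needed for histone replacement, had 248, 287 and 268 FPKM in AOS-transplant libraries, against 242, 113 and 150.02 FPKM in STZ libraries. STZ replicate 1 came within a few FPKM of the lowest AOS-transplant library, and the difference of 0.74 (SE 0.17, limma adjusted p = 0.0018) missed the threshold when only the 2 groups were modelled (limma adjusted p = 0.051). The medians of the elongating spermatid list per library, relative to the control mean on the log2 scale, were −0.01, −0.02 and 0.02 in AOS-transplant libraries, against −0.09, −0.79 and −0.54 in STZ libraries.

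Prm1, Prm2, Prm3 and Tnp2 lie within 8.9 kb of each other on mouse chromosome 16. In spermatids the activator CREM is known to act through cyclic AMP response elements in promoters such as those of Prm1 and Tnp1. The 200 bases before the annotated start of the 3 protamine genes, which are among the 12 largest increases under the naming rule, and of Tnp1 are shown 5′ to 3′ from RefSeq (GRCm38.p6), with matches to TGANNTCA, a pattern that reads the same on both strands, in capitals. They are Prm1 at chr16:10796824-10797023, Prm2 at chr16:10792106-10792305, Prm3 at chr16:10790915-10791114 and Tnp1 at chr1:73015900-73016099, all on the minus strand.
Prm1: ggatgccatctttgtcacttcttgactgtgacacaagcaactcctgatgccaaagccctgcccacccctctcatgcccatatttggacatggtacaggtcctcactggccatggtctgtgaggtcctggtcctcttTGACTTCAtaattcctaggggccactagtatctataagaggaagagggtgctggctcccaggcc
Prm2: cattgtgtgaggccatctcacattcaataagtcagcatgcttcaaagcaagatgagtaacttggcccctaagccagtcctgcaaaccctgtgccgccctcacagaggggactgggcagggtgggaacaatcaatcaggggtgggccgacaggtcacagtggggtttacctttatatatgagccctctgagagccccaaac
Prm3: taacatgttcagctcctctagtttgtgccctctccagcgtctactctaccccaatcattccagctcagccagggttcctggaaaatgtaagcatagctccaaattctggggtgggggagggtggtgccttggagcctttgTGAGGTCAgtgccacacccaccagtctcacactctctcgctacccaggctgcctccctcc
Tnp1: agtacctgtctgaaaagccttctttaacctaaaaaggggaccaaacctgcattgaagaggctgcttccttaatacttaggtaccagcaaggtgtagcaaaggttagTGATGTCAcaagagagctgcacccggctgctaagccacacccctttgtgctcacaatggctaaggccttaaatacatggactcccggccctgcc
Counting the base before the start as −1, the match began at −64 in Prm1, at −60 in Prm3 and at −94 in Tnp1, and Prm2 had none in this window. The pattern occurred in 10.2% of 32851 mouse promoter windows of this length. Among the 12 largest increases, 10 had a promoter in the table and 3 of these held the pattern (Cd5l, Prm1 and Prm3), against 0 of the 11 promoters found for the 12 largest decreases. A match of letters is a description of the sequence and not evidence of binding.

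Round spermatid genes, of which the AOS-transplant group had 21 higher and 0 lower of 32 tested, showed a smaller median of 0.21 (0.39 relative to all genes). All 32 were higher after median centring and 14 after quantile normalization, 0 lower in each, and the count fell to 12 without STZ replicate 3 and to 12 without AOS-transplant replicate 3. Rfx2, a transcription factor gene that drives spermatid programmes, stood at 150, 152 and 150.1 FPKM in AOS-transplant libraries, against 134, 114 and 121 FPKM in STZ libraries (log2 fold change 0.29, SE 0.05, limma adjusted p = 0.0001). The acrosomal genes Acr and Spaca7 rose by 0.25 and 0.32 (limma adjusted p = 0.0011 and 0.0014), and their libraries did not overlap. Acrv1, another acrosomal gene, overlapped between the groups at 276, 249 and 291 FPKM in AOS-transplant libraries and 268, 277 and 232 FPKM in STZ libraries (log2 fold change 0.07, limma adjusted p = 0.40), and its sign turned to −0.05 after quantile normalization.

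Genes of the moving and fuelled sperm tail shifted the same way by small amounts. Of 38 sperm motility genes, 18 were higher and 0 lower (median 0.16, 0.35 relative to all genes), 37 after median centring and 23 after quantile normalization, but 7 without STZ replicate 3. Catsper4, a subunit of the sperm calcium channel, was at 58.9, 57.6 and 62.4 FPKM in AOS-transplant libraries, against 49.2, 51.7 and 41.7 FPKM in STZ libraries (log2 fold change 0.33, SE 0.07, limma adjusted p = 0.0017). The flagellar genes Tekt2 and Qrich2 rose by 0.23 and 0.22 (limma adjusted p = 0.0018 and 0.0016). Of 13 genes of sperm glycolysis, 7 were higher and 0 lower (median 0.28, 0.47 relative to all genes), 13 higher after median centring, and 7 higher with 1 lower after quantile normalization. Aldoart1, the sperm aldolase gene, was at 79.0, 76.5 and 76.3 FPKM in AOS-transplant libraries, against 59.6, 57.0 and 53.5 FPKM in STZ libraries, a clear gap (log2 fold change 0.44, SE 0.05, limma adjusted p = 3e-06). Gapdhs, the sperm-specific glyceraldehyde-3-phosphate dehydrogenase gene, rose by 0.63 (limma adjusted p = 0.00068) and the phosphoglycerate mutase gene Pgam2 by 0.42 (limma adjusted p = 0.0008).

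The other genes among the 12 largest increases under the naming rule, which skips genes known only by a clone or locus identifier, belonged to no spermatid list. Cd5l, a secreted macrophage protein gene, had 2.11, 2.21 and 3.49 FPKM in AOS-transplant libraries, against 0.18, 1.77 and 0.75 FPKM in STZ libraries (log2 fold change 0.99, SE 0.29, limma adjusted p = 0.0098). Crmp1, a cytoskeletal regulator gene, had 3.57, 4.13 and 4.86 FPKM in AOS-transplant libraries, against 2.14, 1.34 and 1.61 FPKM in STZ libraries (0.95, SE 0.23, limma adjusted p = 0.0025). Cyp2a12, a steroid hydroxylase gene, had 11.8, 13.01 and 14.0 FPKM in AOS-transplant libraries, against 7.80, 4.72 and 7.21 FPKM in STZ libraries (0.90, SE 0.13, limma adjusted p = 3.3e-05). Tmed6, Cystm1, Tmem239, Phospho1 and Rapsn rose by 0.73 to 0.76, and the libraries of the 2 groups did not overlap for any of them.

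Meiotic genes did not move as a block. Of 40 tested, 9 were higher and 9 lower (median −0.07, 0.11 relative to all genes), with 26 higher and 1 lower after median centring and 10 higher and 3 lower after quantile normalization. Mns1, a structural protein gene of the late meiotic and spermatid stages, rose by 0.27 (SE 0.05, limma adjusted p = 0.00018). The recombination genes Dmc1 and Mei1 fell by 0.46 and 0.70 (limma adjusted p = 0.00024 and 3.3e-05), Dmc1 to 5.54, 5.43 and 4.94 FPKM in AOS-transplant libraries, against 7.61, 7.07 and 8.36 FPKM in STZ libraries. The Dmc1 difference was −0.10 after median centring and −0.06 after quantile normalization (limma adjusted p = 0.36 and 0.63). Sycp3, a gene of the synaptonemal complex, overlapped at 187, 154 and 171 FPKM in AOS-transplant libraries and 177, 189 and 218 FPKM in STZ libraries (log2 fold change −0.19, limma adjusted p = 0.088). Without STZ replicate 2 or STZ replicate 3 the higher meiotic genes numbered 4 and 2, without AOS-transplant replicate 3 they numbered 4, and without STZ replicate 1 the lower ones numbered 16.

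Spermatogonial and retinoic acid genes were lower in the AOS-transplant group. Of 19 spermatogonial genes, 15 were lower and 0 higher (median −0.42, −0.24 relative to all genes), with 9 lower and 3 higher after median centring and 9 lower and 1 higher after quantile normalization. Stra8, the retinoic acid target that opens meiosis, stood at 8.46, 9.43 and 8.25 FPKM in AOS-transplant libraries, against 18.2, 18.2 and 22.4 FPKM in STZ libraries (log2 fold change −1.08, SE 0.15, limma adjusted p = 3.3e-05). The stem cell factor receptor gene Kit fell by 0.91, Uchl1 by 0.88 and the transcription factor genes Dmrt1 and Etv5 by 0.70 and 0.66 (limma adjusted p between 7.6e-07 and 0.00014). Zbtb16, a marker of undifferentiated spermatogonia, was low, at 0.84, 0.75 and 0.72 FPKM in AOS-transplant libraries and 1.02, 1.38 and 1.78 FPKM in STZ libraries, and its call (−0.42, limma adjusted p = 0.0070) was lost after median centring (−0.06) and after quantile normalization (−0.11). Of 19 retinoic acid genes, 12 were lower and 0 higher (median −0.51, −0.33 relative to all genes), but 7 lower and 7 higher after median centring and 7 lower and 3 higher after quantile normalization. Stra6, the retinol uptake receptor gene, stood at 2.57, 3.14 and 2.79 FPKM in AOS-transplant libraries, against 6.25, 9.78 and 7.11 FPKM in STZ libraries, without overlap (log2 fold change −1.17, SE 0.13, limma adjusted p = 2.7e-06). The retinoic acid receptor gene Rara fell by 0.70 (limma adjusted p = 8.2e-06).

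Sertoli cell genes fell almost without exception. Of 31 tested, 30 were lower and 0 higher, the member that missed the threshold being Ptgds (−0.23), with a median log2 fold change of −1.13 (−0.95 relative to all genes), 26 lower after median centring and 28 after quantile normalization. Clu stood at 492, 485 and 493 FPKM in AOS-transplant libraries, against 1209, 1545 and 1474 FPKM in STZ libraries (log2 fold change −1.51, SE 0.08, limma adjusted p = 4.3e-09). Wt1, a transcription factor that maintains Sertoli identity, was at 10.4, 10.8 and 10.3 FPKM in AOS-transplant libraries, against 24.98, 28.8 and 26.9 FPKM in STZ libraries (−1.28, SE 0.06, limma adjusted p = 2.9e-09). Sox9, a transcription factor of the same cells, fell by 1.13 and the intermediate filament gene Vim by 1.91 (limma adjusted p = 5.3e-06 and 4.3e-09). In none of these 4 genes did the libraries of the 2 groups overlap. Per library, the Sertoli list median stood 0.03, −0.01 and 0.08 from the control mean in AOS-transplant libraries, against 0.84, 1.27 and 1.24 in STZ libraries.

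The blood-testis barrier is the Sertoli cell junction that closes off the tubule, and of its 18 tested genes 16 were lower and 1 higher (median −0.77, −0.59 relative to all genes). After median centring 11 were lower and 2 higher, and after quantile normalization 12 and 1. Cldn11, the main claudin of this junction, stood at 36.0, 39.9 and 38.7 FPKM in AOS-transplant libraries, against 93.9, 124 and 110 FPKM in STZ libraries (log2 fold change −1.49, SE 0.08, limma adjusted p = 4.3e-09). The junctional genes Cgn and F11r fell by 1.25 and 1.18 (limma adjusted p = 3.3e-08 and 3.6e-08). The higher member was Cldn3, chosen after its values were seen, a claudin of newly forming barrier junctions, at 23.5, 25.8 and 22.9 FPKM in AOS-transplant libraries, against 19.8, 14.97 and 14.6 FPKM in STZ libraries (0.54, limma adjusted p = 0.00031, and 0.81 after quantile normalization).

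**Figure D3:**
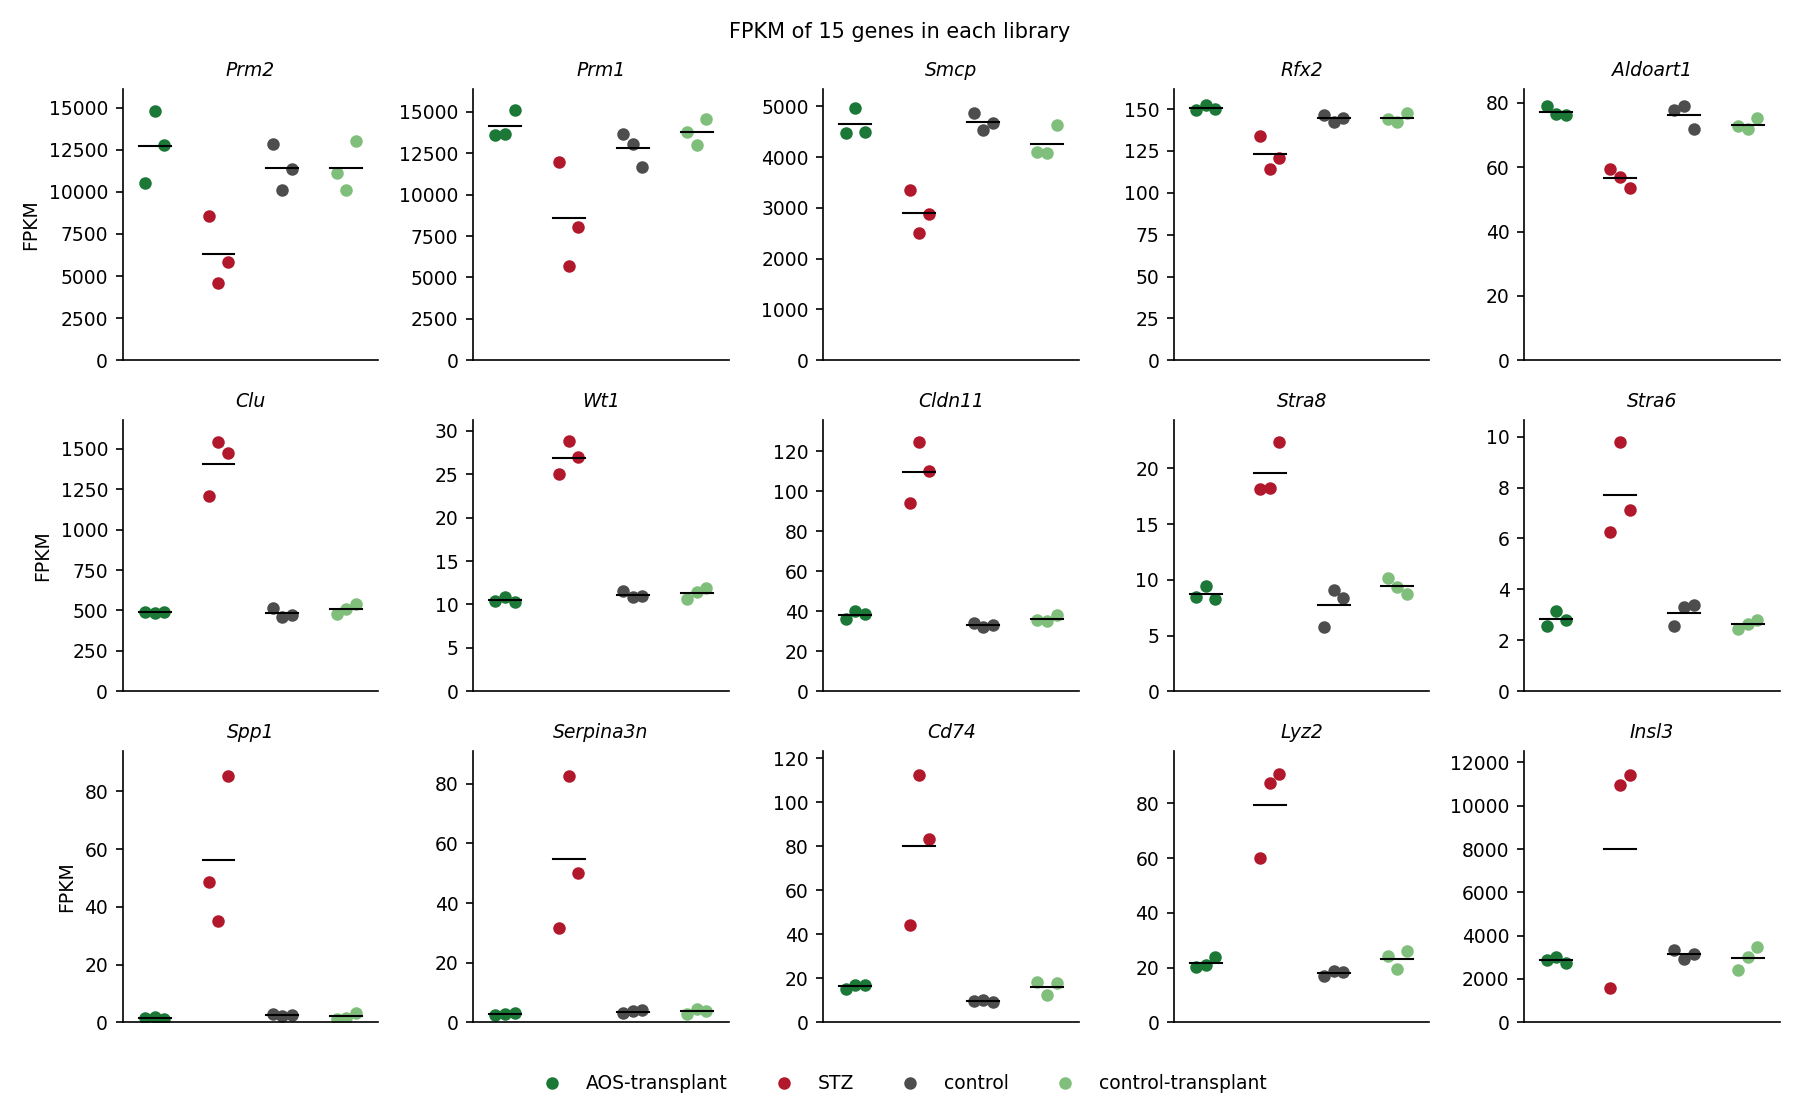
FPKM of 15 genes in each library of the AOS-transplant, STZ, control and control-transplant groups (axes start at 0; points are libraries, bars are group means). Clu, Wt1, Cldn11, Stra6, Spp1, Serpina3n and Lyz2 sit far lower in the AOS-transplant libraries than in the STZ libraries without overlap, while Insl3 is at 1574 FPKM in STZ replicate 1 and at 10967 and 11438 FPKM in the other STZ libraries.

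Spp1 had the largest decrease of the genes named by the rule. Spp1, which encodes osteopontin, a secreted matrix and cytokine protein, stood at 1.43, 1.71 and 1.23 FPKM in AOS-transplant libraries, against 48.6, 35.1 and 85.3 FPKM in STZ libraries, and every STZ library was far above every AOS-transplant library (log2 fold change −4.45, SE 0.29, limma adjusted p = 3e-08). Bpifa2, a secreted lipid-binding protein gene best known from salivary gland, was listed at 0, 0.16 and 0 FPKM in AOS-transplant libraries, against 12.8, 31.9 and 10.1 FPKM in STZ libraries (−4.03 on the log2(FPKM + 1) scale, limma adjusted p = 1.1e-07). Gpnmb, a glycoprotein gene of lysosome-laden phagocytes, had 0.13, 0.16 and 0.25 FPKM in AOS-transplant libraries, against 14.6, 4.69 and 17.7 FPKM in STZ libraries (−3.33, limma adjusted p = 5.2e-07). Apod and Hspb8, an apolipoprotein and a small chaperone gene, fell by 3.37 and 2.95, and Itih3 and Mmp12, a matrix-stabilising plasma protein and a macrophage elastase gene, fell by 2.73 and 2.68. Of 36 genes of lysosomes and phagocytosis, 35 were lower and 0 higher (median −1.27, −1.09 relative to all genes), with 27 lower and 1 higher after median centring and 32 lower and 0 higher after quantile normalization. Lgmn, a lysosomal protease gene, was at 21.9, 21.5 and 22.7 FPKM in AOS-transplant libraries, against 66.8, 84.3 and 78.9 FPKM in STZ libraries (−1.75, SE 0.09, limma adjusted p = 4.3e-09). Psap, the precursor of the saposins, fell by 1.34 (limma adjusted p = 2.3e-08).

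Acute phase and inflammatory genes included several of the steepest decreases. Of 23 tested, 18 were lower and 0 higher (median −1.20, −1.01 relative to all genes), with 14 lower and 1 higher after median centring and 16 lower and 1 higher after quantile normalization. Serpina3n, an acute phase protease inhibitor, stood at 2.37, 2.89 and 3.25 FPKM in AOS-transplant libraries, against 31.5, 82.7 and 50.1 FPKM in STZ libraries (log2 fold change −3.76, SE 0.36, limma adjusted p = 8.1e-07). The complement gene C3 stood at 3.17, 6.73 and 5.72 FPKM in AOS-transplant libraries, against 24.3, 82.6 and 70.6 FPKM in STZ libraries (−3.15, SE 0.38, limma adjusted p = 7.4e-06). In both genes STZ replicate 1 was the lowest STZ library and still lay above every AOS-transplant library. The summed list did not keep this order, at 453, 417 and 385 FPKM in AOS-transplant libraries, against 361, 2345 and 2245 FPKM in STZ replicates 1, 2 and 3. List medians per library, relative to the control mean, were −0.05, 0.03 and 0.05 in AOS-transplant libraries, against 0.74, 1.49 and 1.53 in STZ libraries. Lrg1, a secreted acute phase protein gene, fell by 3.07 and Stat3, the transcription factor that relays interleukin-6 signals, by 1.47 (limma adjusted p = 1.1e-05 and 4.4e-07). Rela, the p65 subunit of NF-kB, fell by 0.50 (limma adjusted p = 1.6e-06), but by 0.14 after median centring (limma adjusted p = 0.065).

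The promoters of Serpina3n and Spp1 are shown as the inflammatory gene and the gene with the largest decreases among those named by the rule. They are the 200 bases before the start at chr12:104406508-104406707 and chr5:104434911-104435110, both on the plus strand, the Spp1 window belonging to the 1st of the starts given in RefSeq (GRCm38.p6). Capitals mark matches to a loose NF-kB-like pattern, GGG and TCC with any 4 bases between them, or GGA and CCC in the same way, which is its form on the other strand.
Serpina3n: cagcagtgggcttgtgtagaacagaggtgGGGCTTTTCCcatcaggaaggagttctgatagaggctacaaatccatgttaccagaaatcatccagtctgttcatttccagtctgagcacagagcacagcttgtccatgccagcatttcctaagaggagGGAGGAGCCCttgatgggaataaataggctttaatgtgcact
Spp1: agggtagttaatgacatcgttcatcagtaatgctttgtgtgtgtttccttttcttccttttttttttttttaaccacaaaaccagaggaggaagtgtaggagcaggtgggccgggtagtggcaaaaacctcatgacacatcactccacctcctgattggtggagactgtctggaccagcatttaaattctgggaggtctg
Serpina3n held matches beginning at −171 and −42, and RefSeq's record of the gene begins at position 104406646 within this window, so the nearer match lies inside it. Spp1 had none in this window, and neither had Bpifa2, whose window is not shown. The pattern occurred in 14.0% of the 32851 windows, in 5 of the 11 promoters found for the 12 largest decreases (C3, Lrg1, Mmp12, Serpina3n and Timp1) and in 1 of the 10 found for the 12 largest increases (Tssk6). Both sets were picked by their differences from STZ. Here and for the pattern in the protamine promoters, the sets held 1 start per gene while the 32851 windows held every start. No test was run, and a match of letters is not evidence of binding.

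Macrophage genes fell too. Of 23 tested, 18 were lower and 1 higher (median −1.25, −1.07 relative to all genes), with 17 lower and 1 higher after either rescaling. Lyz2, the macrophage lysozyme, stood at 20.1, 21.0 and 23.9 FPKM in AOS-transplant libraries, against 60.0, 87.4 and 90.7 FPKM in STZ libraries (log2 fold change −1.81, SE 0.18, limma adjusted p = 1.5e-06). The protease gene Ctss fell by 2.33 and the pore-forming protein gene Mpeg1 by 2.08 (limma adjusted p = 1.6e-07 and 1.2e-07). Adgre1, which encodes F4/80, overlapped at 1.08, 1.19 and 1.74 FPKM in AOS-transplant libraries and 1.02, 2.65 and 2.82 FPKM in STZ libraries (−0.39, limma adjusted p = 0.095), and reached −0.69 without STZ replicate 1 (limma adjusted p = 0.00042). The higher member was Aif1 (0.31, limma adjusted p = 0.013), chosen after its values were seen. Of 6 class II antigen presentation genes, 4 were lower and 0 higher, with 3 lower and 2 higher after either rescaling, and Cd74, the invariant chain, stood at 15, 17.0 and 16.9 FPKM in AOS-transplant libraries, against 44.3, 112 and 83.4 FPKM in STZ libraries (−2.13, SE 0.31, limma adjusted p = 3.6e-05). Of 20 interferon response genes, 17 were lower and 0 higher (median −0.94, −0.75 relative to all genes), 12 lower and 0 higher after either rescaling, among them Ifitm1 (−1.01) and Tapbp (−0.80). Of 12 lymphocyte genes in the table, 3 passed the filter on low values, and 0 of these were called as deposited but 2 were higher and 0 lower after either rescaling (Cd3d and Cd8b1, chosen after their values were seen, 0.36 and 0.32 as deposited, limma adjusted p = 0.21 for each). The summed lymphocyte list lay at 7.91 to 8.29 FPKM in AOS-transplant libraries and 6.73 to 8.60 FPKM in STZ libraries.

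Matrix, peritubular and vessel genes were lower as well. Of 30 fibroblast and matrix genes, 25 were lower and 0 higher (median −0.92, −0.74 relative to all genes), with 19 lower and 1 higher after median centring and 20 lower and 1 higher after quantile normalization. Mgp, which encodes a matrix protein that inhibits calcification, stood at 7.53, 14.8 and 13.7 FPKM in AOS-transplant libraries, against 78.1, 132 and 88.1 FPKM in STZ libraries (log2 fold change −2.96, SE 0.22, limma adjusted p = 9.3e-08). Timp1, an inhibitor of matrix proteases, fell by 3.12 (limma adjusted p = 3.6e-06) and the collagen-binding protein gene Sparc by 1.53 (limma adjusted p = 1.2e-07). Of 13 peritubular myoid genes, 11 were lower and 1 higher (9 and 8 lower, 1 higher, after median centring and quantile normalization), including Tpm1 (−1.32), Ptch1 (−0.92) and Myl9 (−0.91). Of 15 endothelial genes, 13 were lower and 0 higher, with Robo4 at 0.84, 0.97 and 0.57 FPKM in AOS-transplant libraries, against 4.32, 8.21 and 7.02 FPKM in STZ libraries (−2.04, SE 0.16, limma adjusted p = 1.4e-07), but both rescalings left 5 endothelial genes lower and 1 higher.

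Leydig cell genes split by STZ library. Insl3, the Leydig peptide hormone gene, stood at 2896, 3014 and 2755 FPKM in AOS-transplant libraries, against 1574, 10967 and 11438 FPKM in STZ replicates 1, 2 and 3. The AOS-transplant values lay between those of the STZ libraries, and the difference did not pass (log2 fold change −1.01, 95% interval −2.06 to 0.04, limma adjusted p = 0.093), whereas without STZ replicate 1 it was −1.96 (limma adjusted p = 2.5e-08). Star, Hsd3b1 and Cyp17a1, which encode the cholesterol carrier and enzymes of testosterone synthesis, had the same order of libraries, with differences of −0.53, −0.75 and −0.23 (limma adjusted p = 0.27, 0.11 and 0.72). Without STZ replicate 1 these 3 were −1.22, −1.29 and −1.13 (limma adjusted p = 0.00022, 0.0016 and 0.0030), and for Cyp17a1 the sign turned to 0.07 without STZ replicate 2 and to 0.36 without STZ replicate 3. Of 30 Leydig genes, 13 were lower and 2 higher (median −0.58, −0.40 relative to all genes), a lower share near the 44.5% of all genes tested. After median centring 7 were lower and 4 higher, and after quantile normalization 11 and 4. The lower ones numbered 25 without STZ replicate 1 and 8 without STZ replicate 3. Those lower with no overlap included Cyb5a, which supports the lyase step of androgen synthesis (−1.08, limma adjusted p = 5.9e-06), and the glucocorticoid-activating enzyme gene Hsd11b1 (−1.03, limma adjusted p = 3.8e-05).

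**Figure D4:**
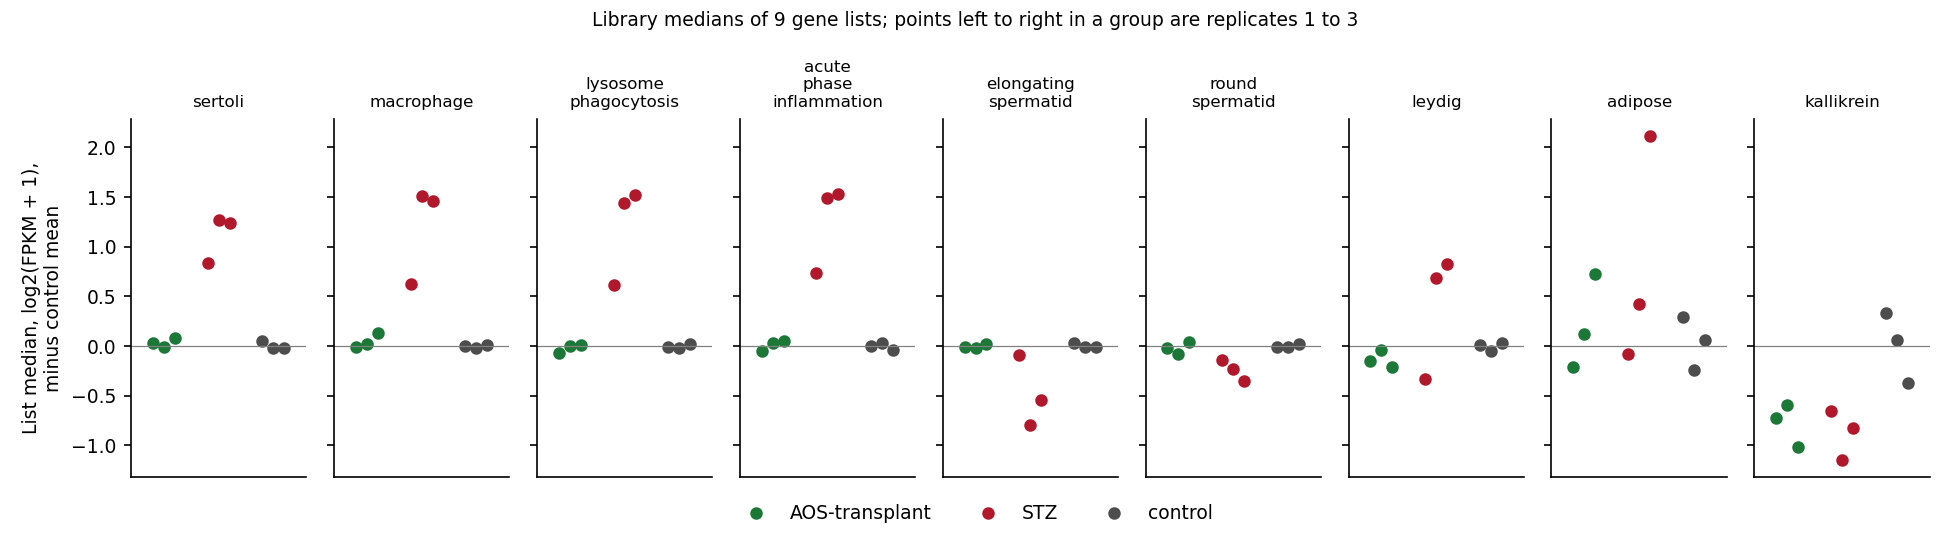
Median of 9 gene lists in each library, as log2(FPKM + 1) minus the control mean, for AOS-transplant, STZ and control libraries (points left to right in a group are replicates 1, 2 and 3). Sertoli, macrophage, lysosome and acute phase medians lie near 0 in AOS-transplant libraries and above 0.6 in every STZ library, Leydig medians are −0.33 in STZ replicate 1 and 0.69 and 0.83 in the other STZ libraries, and adipose medians spread widely within both groups.

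Stress genes were mostly lower as deposited, in shares that depended on the scaling. Of 21 immediate early and heat shock genes, 14 were lower and 2 higher (median −0.97, −0.79 relative to all genes), with 12 and 4 after median centring and 13 and 3 after quantile normalization. Hspb1, a small heat shock protein gene, stood at 25, 24.3 and 28.7 FPKM in AOS-transplant libraries, against 75.3, 82.7 and 77.8 FPKM in STZ libraries (log2 fold change −1.56, SE 0.09, limma adjusted p = 1.3e-08). Of 27 apoptosis and p53 genes, 20 were lower and 0 higher (median −0.63, −0.45 relative to all genes), with 12 lower and 4 higher after median centring and 14 and 1 after quantile normalization, among them the damage-response genes Gadd45a (−1.55), Gadd45b (−1.24) and Sesn1 (−0.78). Antioxidant genes counted 26 lower and 3 higher of 38 (median −0.57, −0.39 relative to all genes), with 15 lower and 11 higher after median centring and 21 and 2 after quantile normalization. Gsta4, which clears lipid peroxidation products, stood at 55.4, 49.5 and 54.5 FPKM in AOS-transplant libraries, against 121, 171 and 171 FPKM in STZ libraries (−1.50, SE 0.12, limma adjusted p = 1.2e-07). The peroxiredoxin genes Prdx2 and Prdx3 fell by 1.35 and 1.13 (limma adjusted p = 3.5e-07 and 2.7e-05). Of 21 genes of the unfolded protein response, 13 were lower and 2 higher (median −0.21, −0.03 relative to all genes), yet after median centring 11 were higher and 5 lower, and after quantile normalization 2 were higher and 11 lower, and Xbp1, its transcription factor, fell by 1.35 (limma adjusted p = 1.7e-06).

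Of 23 insulin and IGF pathway genes, 18 were lower and 0 higher (median −0.53, −0.35 relative to all genes), with 10 lower after either rescaling and 5 and 4 higher. Igf1r, the IGF-1 receptor gene, was at 1.18, 1.20 and 1.29 FPKM in AOS-transplant libraries, against 2.33, 3.58 and 3.43 FPKM in STZ libraries (log2 fold change −0.87, SE 0.11, limma adjusted p = 6.7e-06). Foxo3 and Igfbp7 fell by 0.95 and 1.41 (limma adjusted p = 3.4e-06 and 5.5e-06). Glucose and somatic glycolysis genes counted 12 lower and 5 higher of 27 (median −0.02, 0.16 relative to all genes), a lower share near the 44.5% of all genes tested. After median centring 12 were lower and 14 higher, and after quantile normalization 11 and 4. Pfkl, the liver-type phosphofructokinase gene, was at 4.23, 4.26 and 4.74 FPKM in AOS-transplant libraries, against 11.6, 16.0 and 16.8 FPKM in STZ libraries (−1.53, SE 0.11, limma adjusted p = 7.1e-08). The higher members of the glucose list numbered 8 without STZ replicate 1 and 1 without STZ replicate 2, and 3, 2 and 3 without AOS-transplant replicates 1, 2 and 3. The lactate dehydrogenase B gene Ldhb fell by 1.18 and the pentose phosphate gene Pgd by 1.14 (limma adjusted p = 2.5e-08 and 4e-06). Of 31 fatty acid genes, 18 were lower and 4 higher (median −0.46, −0.28 relative to all genes), with 10 and 8 after median centring and 14 and 2 after quantile normalization, including the fatty acid synthase gene Fasn (−0.90, limma adjusted p = 1.8e-08) and Cpt1a (−1.30, limma adjusted p = 5.9e-07), which admits fatty acids to mitochondria. Cholesterol synthesis genes counted 9 lower and 1 higher of 23 (median −0.32, −0.13 relative to all genes), a lower share below the 44.5% of all genes tested. After median centring 3 were lower and 7 higher, and after quantile normalization 3 and 4. Without STZ replicates 1, 2 and 3 the lower ones numbered 16, 5 and 4, and without AOS-transplant replicate 3 they numbered 5. The sterol sensor gene Scap fell by 1.08 (limma adjusted p = 1.9e-06).

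Of 40 nuclear genes of oxidative phosphorylation, 24 were lower and 2 higher (median −0.21, −0.03 relative to all genes), but 22 were higher and 5 lower after median centring and 0 higher and 23 lower after quantile normalization, and Cycs, the somatic cytochrome c gene, fell by 0.90 (limma adjusted p = 2.2e-05). Of 38 ribosomal protein genes, 31 were lower and 1 higher (median −0.37, −0.19 relative to all genes), with 33 lower and 0 higher after quantile normalization but 9 lower and 10 higher after median centring. Rps4x, an X-linked ribosomal protein gene, stood at 25, 25.5 and 30.7 FPKM in AOS-transplant libraries, against 82.4, 111 and 112 FPKM in STZ libraries (log2 fold change −1.87, SE 0.16, limma adjusted p = 2.7e-07). Rpl10, also on X, fell by 1.48 (limma adjusted p = 1.6e-06), and reads of ribosomal protein genes can be shared with their many pseudogenes.

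Markers of tissues that a dissected testis can carry varied within groups. The 12 adipose genes in the table summed to 24.9, 42.3 and 68.8 FPKM in AOS-transplant libraries, against 32.5, 42.0 and 203 FPKM in STZ libraries, so STZ replicate 3 stood apart, and 2 of the 8 tested were lower and 0 higher (Cidea, −1.29, and Lpl, −0.81). After either rescaling 1 was lower (Cidea, −0.92 and −0.95) and 1 higher (Adipoq, chosen after its values were seen, 0.65 and 0.63, against 0.29 and a limma adjusted p of 0.27 as deposited). Lpl lost its call without STZ replicate 3 (−0.30, limma adjusted p = 0.33), without AOS-transplant replicate 1 (−0.54, limma adjusted p = 0.21) and without AOS-transplant replicate 2 (−0.83, limma adjusted p = 0.082). The 8 erythrocyte genes in the table summed to 91.9, 157 and 130 FPKM in AOS-transplant libraries, against 61.7, 397 and 186 FPKM in STZ libraries, and 1 of the 4 tested was lower (Alas2, a haem synthesis gene, −0.46, limma adjusted p = 0.0020, with no call after either rescaling). The other 3 did not pass, Hba-a1 at −0.52, Hbb-bs at 1.88 and Hbb-bt at 0.29 (limma adjusted p = 0.42, 0.15 and 0.69), and reads of these globin copies can be shared. The 13 epididymis genes in the table summed to 306, 318 and 315 FPKM in AOS-transplant libraries, against 377, 266 and 380 FPKM in STZ libraries, with 2 of the 7 tested called, Wfdc10 lower (−1.28, limma adjusted p = 3.6e-05) and Cst8 higher (0.32, limma adjusted p = 0.040), and the defining markers Lcn5 and Lcn8 at 0 in every library of both groups. The Cst8 call was lost after quantile normalization (0.21) and without any 1 of STZ replicates 2 and 3 and AOS-transplant replicates 1, 2 and 3. Of 11 kallikreins tested, 1 was higher (Klk1b8, 0.54, limma adjusted p = 0.017, and 0.12 with only the 2 groups modelled) and 0 lower, 3 lower without STZ replicate 1. The part of such tissue in the results was not tested.

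**Figure D5:**
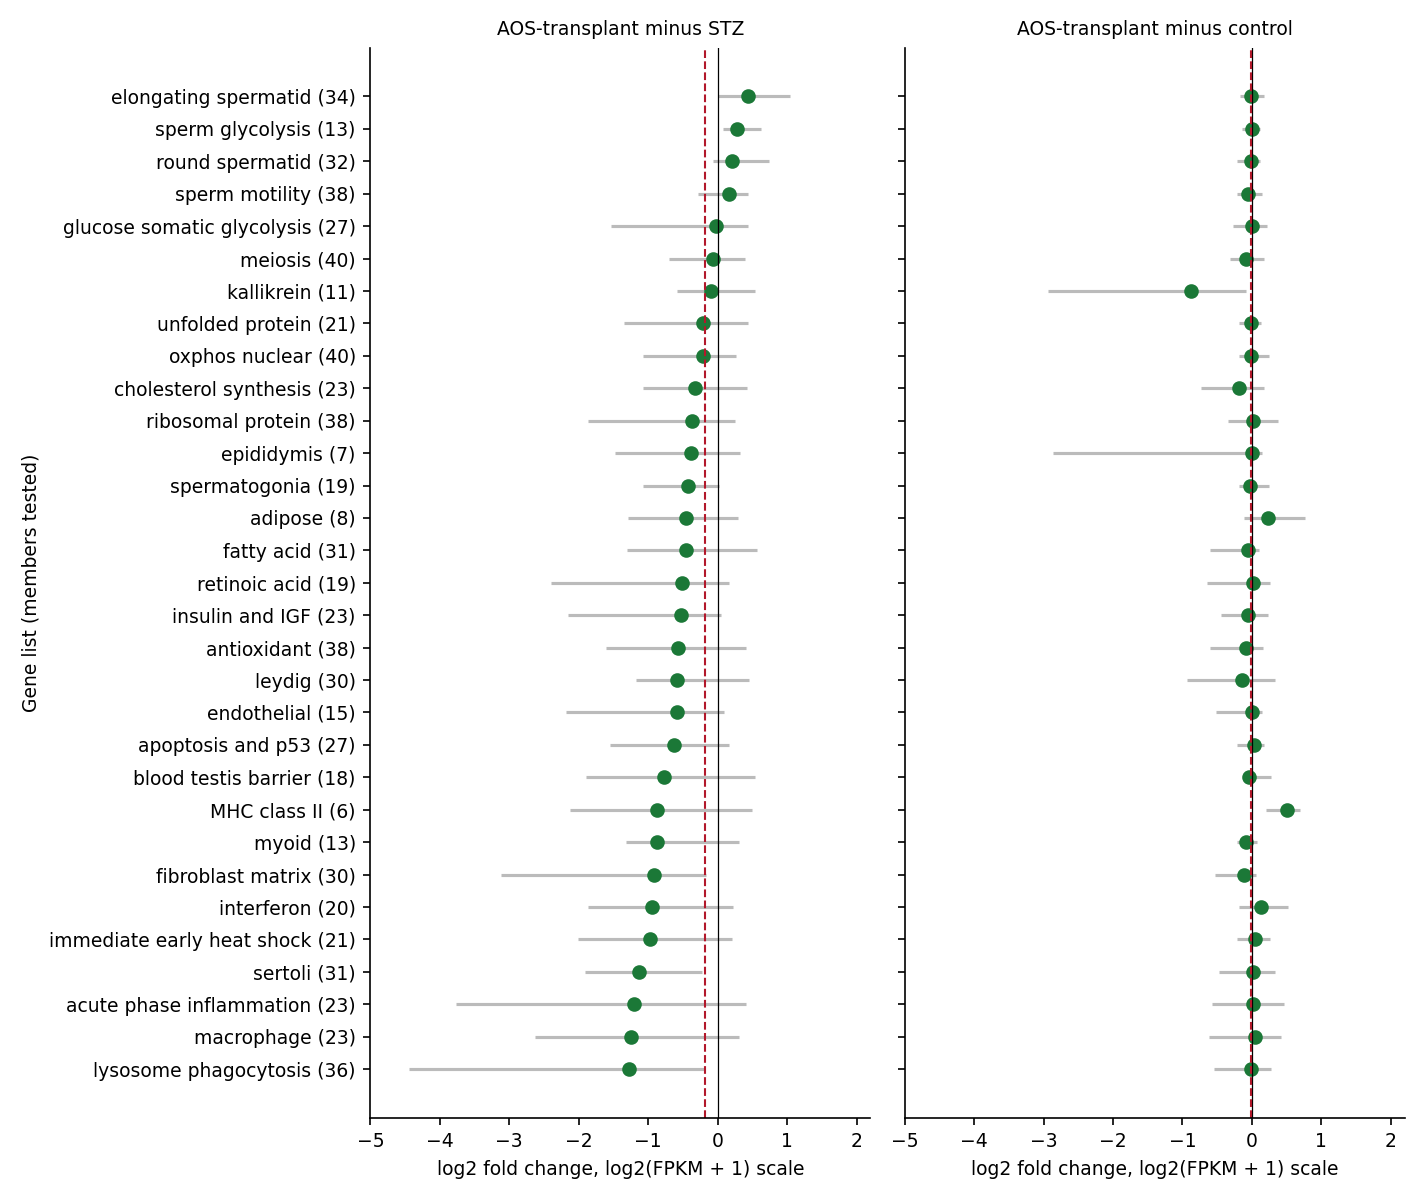
Log2 fold changes on the log2(FPKM + 1) scale for 31 gene lists, as AOS-transplant minus STZ (left) and AOS-transplant minus control (right); points are list medians, grey lines run from the lowest to the highest member, and the dashed line is the median of all tested genes. Against STZ the medians run from 0.44 (elongating spermatid) to −1.27 (lysosome and phagocytosis), while against control most lie near 0, the kallikrein (−0.88) and MHC class II (0.51) medians being farthest from it.

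Against the control group, 0 of 14164 genes (0%) passed with limma in either direction, with 927 genes (6.54%) at an unadjusted p under 0.05, and libraries did not overlap for 16.7%. This comparison uses the same AOS-transplant libraries as the comparison with STZ. The median log2 fold change of all genes was −0.02. For Prm2 the difference from control was 0.15 (95% interval −0.25 to 0.54), for Clu 0.02 (−0.14 to 0.18), for Lyz2 0.26 (−0.13 to 0.65) and for Spp1 −0.55 (−1.17 to 0.07), and each had an adjusted p of at least 0.76. A p that misses the threshold does not show equal levels, and for Star (−0.62, 95% interval −1.46 to 0.23) the interval spans more than 1 unit. These intervals use the spread shared by all groups, which takes in the split of the STZ libraries in Leydig genes such as Star. The smallest p among genes lower than control fell to kallikreins, serine proteases whose near-identical copies can share reads. Klk1b27 stood at 3.30, 1.48 and 0.95 FPKM in AOS-transplant libraries, against 22.4, 16.8 and 10.6 FPKM in control libraries (log2 fold change −2.62, 95% interval −3.59 to −1.65, limma adjusted p = 0.19). The STZ libraries were at 0.57, 3.41 and 7.97 FPKM for the same gene. Klk1b24, Klk1b21, Klk1b22 and Klk1b16 differed from control by −2.71, −2.94, −1.57 and −0.88 (limma adjusted p = 0.19, 0.27, 0.27 and 0.27), and the median over the 11 kallikreins tested was −0.88.

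Among genes higher than control, Grb7, a signalling adaptor gene, had the smallest p (2.09, 1.84 and 2.52 FPKM in AOS-transplant libraries, against 1.20, 0.81 and 0.75 FPKM in control libraries; 0.72, limma adjusted p = 0.19). Fitm1, Ccdc166, Ppp1r13l and Ccnd3 followed with differences of 0.62, 0.40, 0.29 and 0.26 (limma adjusted p between 0.27 and 0.30). The 6 class II antigen presentation genes had a median of 0.51 over control, but of 0.06 over control-transplant. Their medians per library stood 0.49, 0.5 and 0.49 above the control mean in AOS-transplant libraries and 0.43, 0.17 and 0.44 above it in control-transplant libraries. Cd74 was at 15, 17.0 and 16.9 FPKM in AOS-transplant libraries, against 9.65, 10.2 and 9.30 FPKM in control libraries, without overlap (0.69, 95% interval 0.03 to 1.35, limma adjusted p = 0.74). The interval and p-value use the spread shared by all groups, and the STZ libraries, which are not compared here, varied widely for Cd74. H2-Aa and H2-Ab1 were each 0.63 above control (limma adjusted p = 0.76 and 0.68).

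Against the control-transplant group, which shares streptozotocin and the transplant and differs in the donor named by the label, limma again called 0 genes (0%), with 866 (6.11%) at an unadjusted p under 0.05, 14.9% of genes not overlapping and an all-gene median of −0.03. The AOS-transplant libraries are again those of the comparisons above. Imp3, a gene of the small-subunit processome that matures ribosomal RNA, had one of the smallest p, at 12.7, 9.64 and 10.1 FPKM in AOS-transplant libraries, against 16.4, 15.5 and 15.3 FPKM in control-transplant libraries (log2 fold change −0.51, 95% interval −0.69 to −0.33, limma adjusted p = 0.14). Without AOS-transplant replicate 1 the difference was −0.62 and passed (limma adjusted p = 0.0062). Lum, a collagen-binding proteoglycan gene, was at 1.35, 1.24 and 1.55 FPKM in AOS-transplant libraries, against 2.62, 2.49 and 2.72 FPKM in control-transplant libraries (−0.60, limma adjusted p = 0.32). The unnamed loci Gm40363, Gm46403 and Gm46911 differed by −1.58, −1.16 and −1.03 (limma adjusted p = 0.14, 0.14 and 0.32). On the higher side, Ndufaf2, an assembly factor gene of respiratory complex I, was at 41.5, 46.7 and 44.7 FPKM in AOS-transplant libraries, against 34.4, 32.3 and 36.9 FPKM in control-transplant libraries (0.35, limma adjusted p = 0.34), and Mns1 and Rassf7 followed at 0.20 and 0.27 (limma adjusted p = 0.44 for each). For Prm2, Clu and Lyz2 the differences were 0.15 (95% interval −0.24 to 0.54), −0.05 (−0.22 to 0.11) and −0.09 (−0.48 to 0.30). Marker lists of other tissues differed more than these: the erythrocyte list summed to 91.9 to 157 FPKM in AOS-transplant libraries and 297 to 673 FPKM in control-transplant libraries, the adipose list to 24.9 to 68.8 FPKM in AOS-transplant libraries and 73.3 to 103 FPKM in control-transplant libraries, and the epididymis list to 306 to 318 FPKM in AOS-transplant libraries and 389 to 786 FPKM in control-transplant libraries. In each of the 3 lists the groups did not overlap, no member was called, and the part of such tissue in this comparison was not tested.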

How the data were processed

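Per the labels' protocols, testes kept in liquid nitrogen were lysed in Trizol, and 1 µg of column-purified total RNA went into each Illumina library. The submitters' processing notes name Bowtie 0.12.2 and mm10 without a role for either, while how reads were counted, on which annotation and with which scaling is not given in the sources used here. As deposited, the table names no unit for its values. The authors' deposited values were taken as FPKM because low values tend to sit on steps whose size falls as transcripts get longer. Of 5980 low values of 806 genes, 73.2% were whole multiples within 0.15 of a step, and RPKM cannot be told apart. The step of a gene was its own lowest value above 0, which therefore counted as whole by construction. Some other values would lie within 0.15 of a multiple without any steps, and that share was not computed. Because all multiples were whole in only 310 of the 806 genes, no reads were recovered. Depth is therefore unknown, and no counting interval or detection limit is given. The table has 395 genes at 0 in every library and 37 symbols turned into dates or numbers, none of them named here.

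Values were tested as log2(FPKM + 1), so fold changes of low genes are understated. Genes with at least 1 FPKM in at least 3 of the 18 libraries entered limma-trend (limma 3.58.1, R 4.3.3), with a mean per group, no replicate block, 12 residual degrees of freedom, two-sided tests and Benjamini-Hochberg adjustment over the 14164 genes of each comparison, called under 0.05. With 3 libraries a group, an exact permutation test of a single gene cannot go below 0.1, so none is given. Same-numbered AOS-transplant and STZ libraries had deviations correlating at 0.08, 0.07 and −0.08, so numbers were not taken as pairs. At most 0.81% of values were identical between replicates.

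The members, the 33 gene lists and the tests were chosen with earlier results of these data known. Named genes are the 12 largest increases and 12 largest decreases against STZ (called, not overlapping, mean of at least 1 FPKM in a group, without genes known only by a clone or locus identifier and without copies that cannot be separated), up to 3 members with the smallest p of each list that held a called gene, fixed markers, and the 5 with the smallest p each way in the other comparisons. Some genes with larger rises than most of these 12 increases were left out by this rule. Some named genes are left out of the text and not reported here. Other genes are said to be chosen after their values were seen. Alternatives were a pseudocount of 0.1, no filter, median centring, quantile normalization, the 2 groups alone, array weights, a replicate block and leaving out each library. Promoter windows came from RefSeq (GRCm38.p6).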

Additional observations from a re-analysis of the deposited data

How the results depend on the processing

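The genes higher and lower than STZ numbered 1703 and 6308, and 6350 and 2744 after median centring, 4220 and 3205 after quantile normalization, and 573 higher with only the 2 groups in the model. Leaving out 1 library gave 1153 to 2082 higher and 5250 to 7027 lower, fewest without STZ replicate 3 and most without STZ replicate 1. The pseudocount of 0.1, no filter and array weights stayed within 1.5 times of both counts. With the replicate block, 1663 genes were higher and 6258 lower than STZ, and 0 passed against control or control-transplant. Not every library correlated best with its own number in STZ, and the block moved no call of a gene named against STZ.

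Signs turned for Sycp3 (0.18) and Cyp17a1 (0.13) after median centring, and for Acrv1 (−0.05) after quantile normalization. Signs also turned for Cyp17a1 (0.07) and Hba-a1 (0.18) without STZ replicate 2, and for Cyp17a1 (0.36) and Acrv1 (−0.01) without STZ replicate 3. Without STZ replicate 1, Cyp17a1 reached −1.13 and Hba-a1 −1.31. None of these 4 genes had passed. List medians turned after median centring for meiosis (0.29), unfolded protein (0.15), oxidative phosphorylation (0.15), glucose (0.35), cholesterol (0.05), erythrocyte (0.28) and kallikrein (0.26) genes. After quantile normalization they turned for meiosis (0.04), erythrocyte (0.12) and kallikrein (0.13) genes. The erythrocyte median also turned with a pseudocount of 0.1 (0.28), without STZ replicate 2 (0.14) and without AOS-transplant replicates 1 (0.03) and 2 (0.01), its range with 1 library left out being −0.16 to 0.14. The adipose (0.14) and kallikrein (0.13) medians turned without STZ replicate 3, and their lowest values with 1 library left out were −0.94 and −0.27. The cause was not tested.

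Against control, no filter gave 1 lower gene (Gm4705, −0.34), array weights gave 1 higher (Grb7, 0.75) and 3 lower (Klk1b21, −3.01, Klk1b24, −2.80, and Klk1b27, −2.66), and leaving out a library gave 0 to 1 higher and 0 to 1 lower (Il3ra, 0.76, without control replicate 1, and Klk1b22, −2.01, without control replicate 3). Against control-transplant, no filter gave 1 lower gene (Chad, −0.41), and leaving out a library gave 0 higher and 0 to 3 lower. These were Imp3 (−0.62) without AOS-transplant replicate 1, Akr1b7 (−4.58), Gm46403 (−1.37) and Krt19 (−1.33) without control-transplant replicate 1, and Hbb-bt (−3.03), Gm40363 (−1.86) and Defb47 (−1.58) without control-transplant replicate 3. Genes outside the naming rule here were chosen after their values were seen. Unknown depth leaves low values, such as those of Zbtb16, without a counting error.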

Other observations

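Some somatic and germ cell forms of the same enzyme or subunit had opposite signs in the AOS-transplant group against STZ, in pairs picked for this contrast after their values were seen, and other pairs did not. The somatic aldolase gene Aldoa differed by 0.10 (limma adjusted p = 0.11) beside a rise of 0.44 in its sperm form Aldoart1, and Ldha differed by 0.10 beside 0.16 in Ldhc (limma adjusted p = 0.10 and 0.051). Gapdh fell by 0.82 while Gapdhs rose by 0.63, Pgk1 fell by 0.95 while Pgk2 rose by 0.40, and Pgam1 fell by 0.99 while Pgam2 rose by 0.42 (limma adjusted p at most 0.012 for each). Pgk1 stood at 9.18, 8.33 and 9.97 FPKM in AOS-transplant libraries, against 14.0, 21.4 and 21.1 FPKM in STZ libraries. The respiratory subunit genes Cox6b1 and Cox8a fell by 0.83 and 1.00, and their testis forms Cox6b2 and Cox8c rose by 0.26 and 0.19 (limma adjusted p at most 0.0065 for each), but the rises were 0.09 and 0.07 after quantile normalization (limma adjusted p = 0.21 and 0.23). Rpl10 fell by 1.48 while Rpl10l, its germ cell copy, rose by 0.25 (limma adjusted p = 0.026; 0.17 and adjusted p = 0.075 after quantile normalization). Rpl39l and Cyct, the germ cell copies of Rpl39 and Cycs, had differences of 0.19 and 0.09 that did not pass (limma adjusted p = 0.090 and 0.24). Reads of such pairs can be split between copies.

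Genes on the X chromosome, which is silenced in male germ cells from meiosis, were more often lower than autosomal ones in these libraries. Of 627 tested X-linked genes, 53.1% were lower and 5.10% higher than in STZ, with a median log2 fold change of −0.40 as deposited and −0.04 after median centring, under which 31.7% were lower. On single autosomes 38.7 to 49.4% were lower and 9.03 to 14.6% higher as deposited, with medians between −0.23 and −0.13. After median centring 16.1 to 23.9% of the genes on single autosomes were lower, with medians between 0.13 and 0.23. Of 72 Y-linked genes, 11.1% were lower and 6.94% higher. A chromosome was known for 13772 of the 14164 genes, and X and autosomes were not tested against each other.

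Genes with a high mean over all libraries were more often higher in the AOS-transplant group than in STZ. Of the 409 genes at 250 FPKM or more, 66.3% were higher and 11.5% lower (median log2 fold change 0.23), against 39.4% and 15% of the 1909 genes at 50 to 250 FPKM (median 0.12) and 11.5% and 38.7% of the 4246 genes at 10 to 50 FPKM (median −0.10). Lower levels are not given, since a gene could pass the filter through the STZ libraries alone, and the bands were not tested against each other. The mean that set the bands took in the libraries compared here, and the shares were computed on the deposited scaling only. Against control, which shares the AOS-transplant libraries, the medians of these 3 bands were 0.01, −0.01 and −0.02.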
